A study of Oryctolagus cuniculus with 18 samples.

Results

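The genes described here were 200 rabbit genes whose level in non-operated eyes was similar in retina and RPE-choroid and which were lower in every retina sample from operated eyes than in every non-operated retina sample. Counts were first divided by the total gene counts of their library and expressed as CPM. A gene had shared expression when its mean in non-operated retina was at least 2 CPM and lay within 1 log2 unit of its mean in non-operated RPE-choroid, after 0.5 CPM was added to both, and 8912 of 29587 annotated genes met this rule. Of these, 462 had their highest operated retina sample below their lowest non-operated one, which is 5.18% of the shared-expression genes. With TMM-scaled CPM, a scaling that corrects for composition, 1085 genes were eligible. The 200 with the lowest ratio of operated to non-operated retina were kept and are ranked from 1, the lowest ratio. The genes were thus chosen by their measured levels in the 9 retina samples and in non-operated RPE-choroid, and their retina values against non-operated retina are given as a description.

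The retina is the layered neural tissue that senses light. It rests on the retinal pigment epithelium (RPE), which recycles visual pigment, takes up shed photoreceptor outer segments and forms the outer blood-retina barrier, and behind it the vascular choroid supplies oxygen and nutrients. The vitreous gel in front of the retina is removed in vitrectomy, after which a substitute fills the cavity. Genes used at similar levels by neural retina and RPE-choroid commonly include those for functions that most cells need.

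Retina and RPE-choroid were taken from male New Zealand White rabbits, bought at an age of 4 to 6 months. Operated eyes were taken 1 or 2 months after surgery, and the age at sampling is not given. Non-operated eyes were compared with eyes in which the vitreous had been removed and replaced by poly(CEP), a thermogelling polymer of poly(ethylene glycol), poly(propylene glycol) and polycaprolactone segments, 1 month or 2 months earlier. There were 3 samples of each tissue at each condition, 18 in all. Poly(CEP)-filled eyes had undergone both the surgery and the filling, and the effects of these cannot be told apart here because no group had vitrectomy alone. The study also gave treated eyes an antibiotic and steroid ointment after surgery, which cannot be told apart from either. It lists the 2-month eyes of this kind as fellow eyes of eyes with induced proliferative vitreoretinopathy, a retinal scarring disease. The 1-month eyes are listed with no such fellow eye, so time and fellow eye cannot be told apart. The labels call the posterior sample retinal pigment epithelium, and the study's methods describe it as RPE with choroid. The samples were described as biological replicates, but the labels do not say which retina and RPE-choroid samples came from the same eye.

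Each library held between 22335005 and 33505730 counts on genes. Counts aligned to more than 1 place were 11.66 and 11.09% of the total in 2-month retina replicates 1 and 2. In 2-month RPE-choroid replicates 1 and 2 they were 13.67 and 13.22%. Replicate 3 at 2 months had 8.439% in retina and 9.962% in RPE-choroid, and the other groups had 8.032 to 9.625%. What this did to the 2-month values was not tested. In the operated groups, replicates 1 and 2 resembled each other more than either resembled replicate 3, where chi-square divided by its degrees of freedom, over genes, was 12 to 25.1 against 132 to 223, and no pair of libraries agreed within counting noise. Retina-high genes, the 200 genes with the largest mean difference in log2 CPM between the 9 retina and the 9 RPE-choroid libraries, were present at very unequal levels in the RPE-choroid libraries. As a percentage of their level in retina of the same condition, by the median over the list, they stood at 20.8, 0.431 and 56.6% in the 3 non-operated RPE-choroid libraries, at 67.9, 80.7 and 39.0% at 1 month, and at 18, 18.4 and 0.286% at 2 months. None of the 200 lowered genes was on that list, which the limit on shared expression largely fixed in advance. Shared expression was set by the mean of the 3 non-operated RPE-choroid libraries, which were this unequal. How far their retina signal made genes appear shared was not tested. The deposited table and the RefSeq gene table used here share no identifiers, so 0 genes could be given a symbol, a role or a sequence, and the labelled tissues were not checked against markers. Genes are given by rank, and identifiers are printed for 4.

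In non-operated retina the 200 genes ranged from 2.03 to 1761 CPM, with a median of 50.02 CPM and quartiles of 18.5 and 125 CPM. Most leaned towards retina within the allowed range. The log2 ratio of retina to RPE-choroid in non-operated eyes had a median of 0.56, and it was above 0 for 170 genes and below 0 for 30. The log2 ratio of operated to non-operated retina that ranked them ran from -2.54 to -0.50, and 26 genes had a ratio below -1. At the lower boundary, the last 2 genes kept had ratios of -0.5006 and -0.4993, and the first 2 eligible genes left out had -0.4988 and -0.4968.

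In retina the 200 genes together took 2.13% ± 0.0947 (SD, n = 3) of gene counts in non-operated eyes. This share was 1.196% ± 0.161 at 1 month after filling and 1.30% ± 0.265 at 2 months. The median over genes of the log2 ratio of a library to the non-operated mean, with 0.5 CPM added to both, was 0.02, -0.10 and 0.04 in the 3 non-operated retinas, -0.72, -0.72 and -0.87 at 1 month, and -0.77, -0.87 and -0.39 at 2 months. Replicate 3 at 2 months was thus the operated retina nearest to non-operated levels, and it was the highest of the 6 operated retinas for 157 of the 200 genes. Replicate 3 at 1 month was the lowest of the 6 for 87 genes. In bulk tissue, fewer cells of a type and less RNA per cell cannot be told apart.

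**Figure D1:**
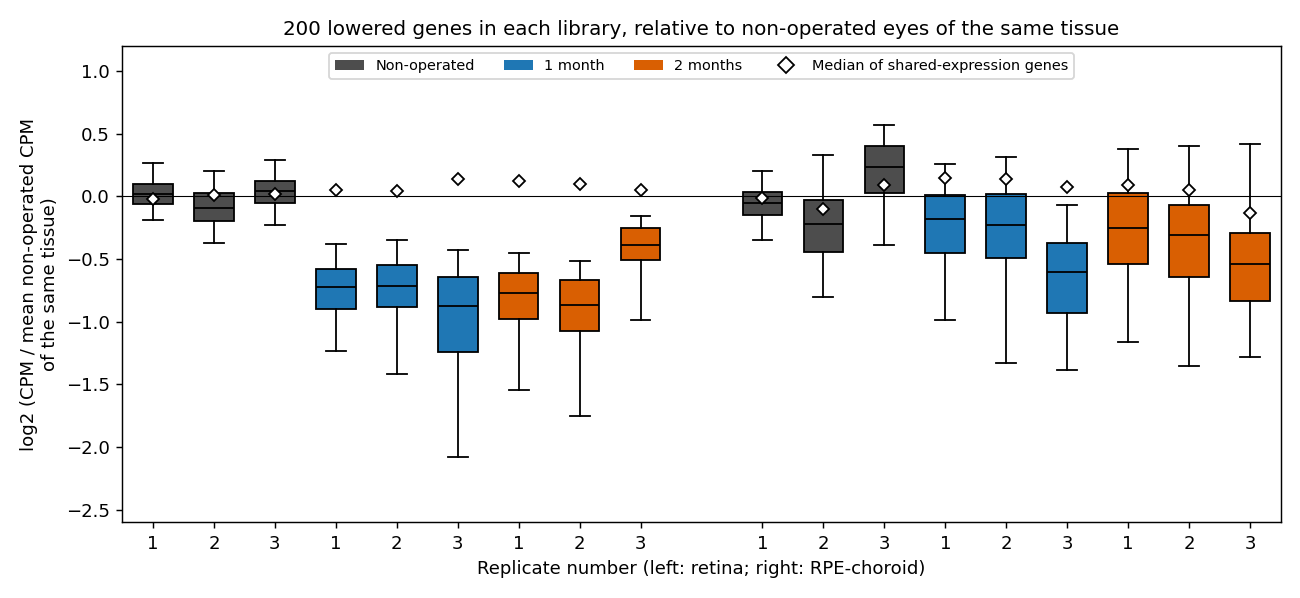
Level of the 200 genes in each of the 18 libraries, as log2 of CPM over the mean of the non-operated samples of the same tissue, with boxes for quartiles, whiskers for the 5th and 95th percentiles and diamonds for the median of all shared-expression genes. The operated retina medians lie between -0.87 and -0.39, and the operated RPE-choroid medians between -0.60 and -0.18, against -0.22 to 0.24 in non-operated RPE-choroid.

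With edgeR's quasi-likelihood test and Benjamini-Hochberg adjustment over 15878 genes, at a threshold of 0.05, 170 of the 200 were called lower in retina at 1 month, where 7.07% of all genes tested were called lower. At 2 months 118 were called lower, against 2.99% of all genes, and for the mean of both times 190 were, against 9.37%. The median log2 fold changes were -0.91 at 1 month and -0.80 at 2 months. These counts follow from how the genes were chosen. They also rested on single libraries: at 2 months, 188 genes were called without 2-month replicate 3, against 12% of all genes, and 18 without 2-month replicate 1, against 0.439%. At 1 month 76 were called without non-operated replicate 1, against 1.6% of all genes.

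The choice treated the 6 operated retinas alike, but it required each of them to be low and so limited how far the times could differ. The difference between 2 months and 1 month in retina is therefore a description with no test. The log2 fold change was above 0, that is less low at 2 months, for 152 of 200 genes, with a median of 0.09. This direction depended on 1 library. Without 2-month replicate 3 the change was above 0 for 46 of 200 genes and the median was -0.12.

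The question set by these genes was whether they were also lower in RPE-choroid of operated eyes, samples that the choice did not use. These samples held retina-high genes at unequal levels, and what part retina RNA had in their values was not tested. Levels in operated RPE-choroid were below those in non-operated RPE-choroid for nearly all of them, by less than in retina for most. By edgeR 0 single genes passed the test with all libraries, and DESeq2 called some, as given for each time. Together they took 1.499% ± 0.226 (SD, n = 3) of gene counts in non-operated RPE-choroid, from 1.33 to 1.755%. At 1 month the share was 1.12% ± 0.146, from 0.951 to 1.224%, and at 2 months it was 1.15% ± 0.0315, from 1.117 to 1.178%. All 6 operated libraries lay below all 3 non-operated ones in this share.

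All of the 200 genes except rank 1 had enough counts to be tested in RPE-choroid. Of those tested, 191 had a negative log2 fold change at 1 month, with a median of -0.45. Among all 16322 genes tested, 50.7% were negative and the median was -0.01. By edgeR with Benjamini-Hochberg adjustment 0 of them were called lower, as were 0% of all genes tested, and the smallest adjusted p was 0.0924. At an unadjusted p under 0.05, 79 were lower, against 13.3% of all genes. DESeq2 called 35 lower, against 5.45% of all genes. Leaving out non-operated replicate 3 raised the edgeR count from 0 to 28, and 8.9% of all genes were called lower in that fit.

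At 2 months 175 of those tested were negative, with a median of -0.37, against 51.4% negative and a median of -0.01 over all genes tested. Again 0 were called lower by edgeR with Benjamini-Hochberg adjustment, as were 0% of all genes, and the smallest adjusted p was 0.15. At an unadjusted p under 0.05, 61 were lower and 2 higher, against 3.85% and 6.84% of all genes. DESeq2 called 17 lower, against 0.603% of all genes, and 1 higher, against 1.42%. When shared expression was set by operated in place of non-operated RPE-choroid, the 2-month median was -0.24, and when its range was narrowed to 0.5 log2 units it was -0.19. The 1-month and 2-month values share the same 3 non-operated samples, and side by side 167 genes were lower at both times, 24 at 1 month alone, 8 at 2 months alone and 0 at neither.

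For the mean of both times, 197 of the genes tested were negative in RPE-choroid, against 52.5% of all genes tested and 51.5% of the shared-expression genes. The median log2 fold change was -0.44, with quartiles of -0.60 and -0.25 and a range from -1.95 to 0.44, and the median of the shared-expression genes was -0.01. By edgeR with Benjamini-Hochberg adjustment 0 were called lower, as were 0% of all genes, and the smallest adjusted p was 0.229. At an unadjusted p under 0.05, 82 were lower and 1 higher, against 5.84% and 4.78% of all genes. DESeq2 called 17 lower, against 0.621% of all genes. On plain CPM, without TMM scaling, 187 of 200 were lower, with a median log2 ratio of -0.34. The median was -0.30 when shared expression was set by operated RPE-choroid and -0.27 when its range was narrowed to 0.5 log2 units. The biological coefficient of variation between replicates was 0.416 in RPE-choroid and 0.234 in retina.

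**Figure D2:**
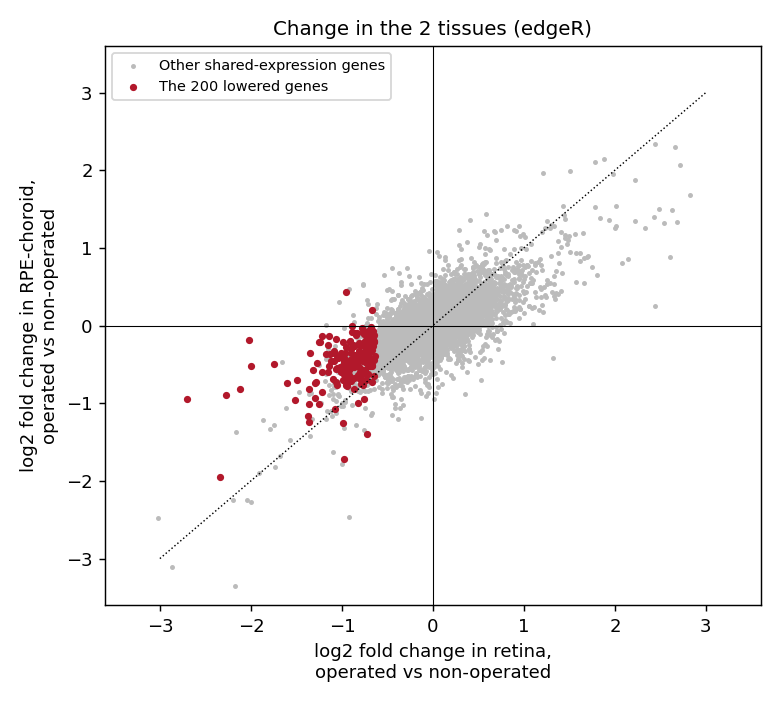
Log2 fold change of operated (mean of 1 and 2 months) against non-operated eyes in retina (x axis) and RPE-choroid (y axis), for the 200 genes (red) and the other shared-expression genes tested in both tissues (grey), with a dotted line where both changes are equal. The chosen genes lie left of 0 by their choice, and 197 of them also lie below 0 on the RPE-choroid axis.

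The change in RPE-choroid was at least 0.5 times the retina change for 93 of the genes tested and was the more negative of both for 7. It was graded along the ranking. The median RPE-choroid log2 fold change was -0.57 for ranks 1 to 50, -0.48 for ranks 51 to 100, -0.40 for ranks 101 to 150 and -0.28 for ranks 151 to 200, where the retina medians were -1.22, -0.91, -0.79 and -0.69. The 262 eligible genes ranked after them had a median of -0.19, and 239 of them were negative. Across genes, which are not independent replicates and share their libraries, Spearman's rho between the changes in both tissues was 0.44 over the genes of the 200 tested in both and 0.68 over 8911 shared-expression genes. Level made less difference, since the medians ran from -0.39 to -0.49 over 4 bands of non-operated retina CPM.

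Counting libraries without a model gave a smaller set. All 6 operated RPE-choroid libraries lay below all 3 non-operated ones for 23 of the 200 genes, against 1.22% of shared-expression genes, and above them for 0, against 4.11%. By rank, 10 of the 23 were among ranks 1 to 50, 7 among ranks 51 to 100, and 3 in each of the following groups of 50. At 1 month alone 65 genes had all 3 libraries below all 3 non-operated ones, against 7.05% of shared-expression genes, and at 2 months 48 did, against 4.93%.

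The gene with the most negative log2 fold change in RPE-choroid, among 182 with at least 5 CPM there, was ENSOCUG00000026384, rank 2. Its level in retina was 347, 228 and 255 CPM in non-operated eyes, 61.2, 57.9 and 12.1 CPM at 1 month and 53.2, 48.8 and 138 CPM at 2 months. In RPE-choroid it was 144, 98.6 and 175 CPM in non-operated eyes, 36.6, 28.1 and 17.8 CPM at 1 month and 28.7, 33.7 and 87.9 CPM at 2 months. Operated and non-operated groups did not overlap in RPE-choroid, and in retina the choice required this. Replicate 3 at 2 months was the highest operated sample in both tissues. The RPE-choroid log2 fold change for operated eyes was -1.95 (SE 0.40, edgeR adjusted p = 0.251), with DESeq2 giving an adjusted p of 0.00271. Without 2-month replicate 3 it was -2.34, with an edgeR adjusted p of 0.0236. Leaving out any other single library gave an edgeR adjusted p of 0.114 to 0.806.

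Next came ENSOCUG00000005513, rank 53. Retina held 73.1, 109 and 70.0 CPM of it in non-operated eyes, 42.5, 49.9 and 41.4 CPM at 1 month and 49.8, 44.5 and 54.5 CPM at 2 months. In RPE-choroid, non-operated libraries ranged widely, at 79.7, 206 and 48.8 CPM, and operated ones were at 41.1, 49.7 and 26.9 CPM at 1 month and 34.4, 34.3 and 34.7 CPM at 2 months. One operated library thus lay above the lowest non-operated one. The log2 fold change was -1.72 (SE 0.42, edgeR adjusted p = 0.29), and without non-operated replicate 2, the highest, it was -0.86. DESeq2 gave an adjusted p of 0.0175, and without non-operated replicate 3 the edgeR adjusted p was 0.0382. With any other single library left out, the edgeR adjusted p was 0.224 to 0.806.

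Only 2 of the genes tested had a positive RPE-choroid log2 fold change for the mean of both times. The larger was that of ENSOCUG00000013290, rank 63, at 29.6, 30.7 and 31.7 CPM in non-operated retina, 16.9, 16.8 and 12 CPM at 1 month and 13.8, 15.6 and 29.1 CPM at 2 months. In RPE-choroid it stood at 35.1, 28.4 and 37.5 CPM in non-operated eyes, 33.4, 29.5 and 26.3 CPM at 1 month and 71.8, 84.5 and 75.2 CPM at 2 months. All 3 libraries at 2 months lay above the other 6. The log2 fold change at 2 months was 1.17 against non-operated eyes (SE 0.14, edgeR adjusted p = 0.15; DESeq2 adjusted p = 2.29e-08), and with the level of retina-high genes as a covariate the edgeR adjusted p was 0.0444. Leaving out single libraries of these groups gave an edgeR adjusted p of 0.0762 to 0.693. Against 1 month the log2 fold change was 1.47 (SE 0.14, edgeR adjusted p = 0.0503; DESeq2 adjusted p = 1.39e-13), and without 2-month replicate 3 the edgeR adjusted p was 0.0402. Leaving out any other single library there gave 0.0817 to 0.207.

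The other was ENSOCUG00000002172, rank 178. It stood at 53.3, 60.7 and 46.3 CPM in non-operated retina, 41.5, 44.6 and 19.8 CPM at 1 month and 35.4, 37.3 and 41.9 CPM at 2 months. RPE-choroid held 37.2, 30.1 and 41.9 CPM in non-operated eyes, 46.9, 41.4 and 29.0 CPM at 1 month and 37.3, 49.3 and 60.4 CPM at 2 months. These groups overlapped, and the log2 fold change of 0.20 (SE 0.22, edgeR adjusted p = 0.794) was smaller than its error.

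**Figure D3:**
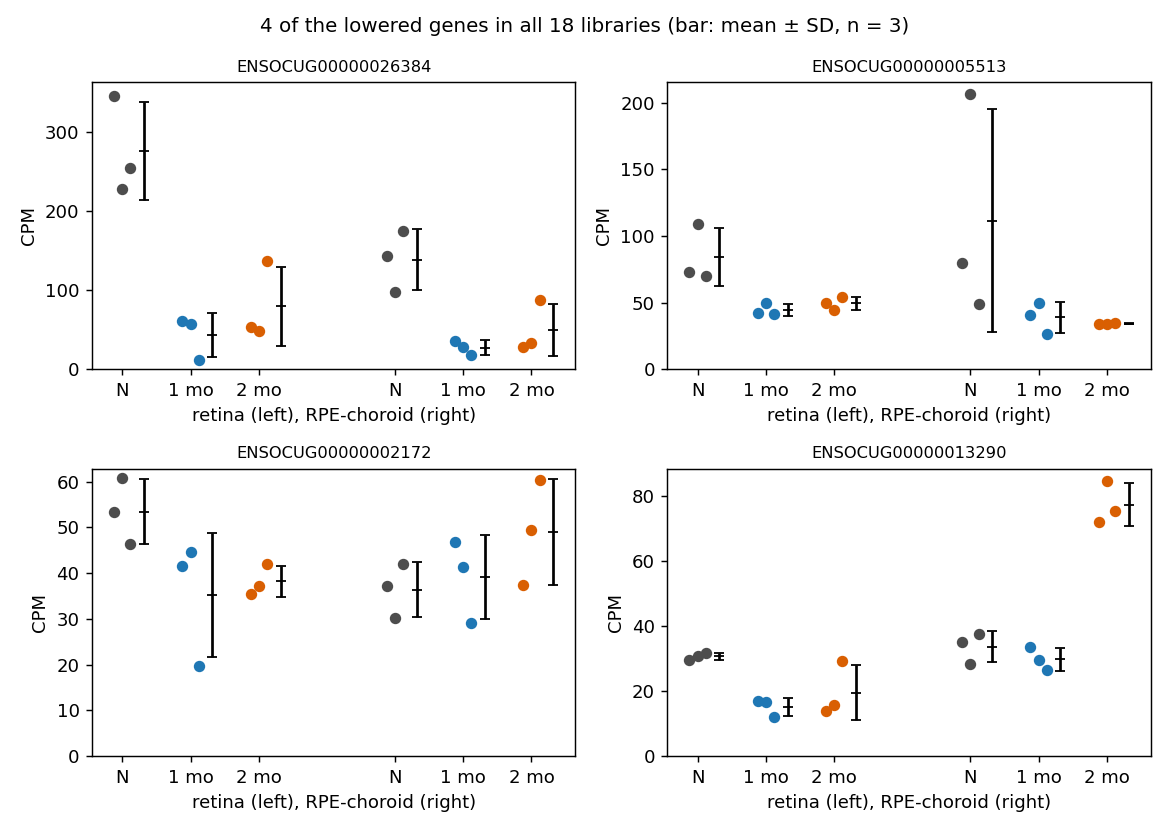
CPM of the 4 genes named by identifier in each library of retina and RPE-choroid, with points for the 3 samples of each condition and bars for their mean ± SD. ENSOCUG00000013290 is lower in operated retina and stands at 71.8 to 84.5 CPM in RPE-choroid at 2 months, against 28.4 to 37.5 CPM in non-operated RPE-choroid.

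A few further genes were chosen after their values were seen. Ranks 67, 60 and 40 are among the 23 genes with all 6 operated RPE-choroid libraries below all 3 non-operated ones. They therefore do not show the range of agreement between replicates over the 200 genes. Rank 67 stood at 24.4, 28.9 and 25.8 CPM in non-operated RPE-choroid, at 15.2, 15.3 and 13.8 CPM at 1 month and at 18.3, 17.9 and 17.6 CPM at 2 months. Its operated groups lay wholly below, with a log2 fold change of -0.78 (SE 0.12), and its edgeR adjusted p of 0.229 was the smallest among these genes. Its retina values were 28.6, 25.3 and 27.9 CPM, then 16.2, 16.3 and 14.4 CPM at 1 month and 13.6, 15.6 and 17.3 CPM at 2 months, so the difference was of similar size.

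Rank 60 was as even. In retina it went from 46.8, 45.7 and 48.5 CPM in non-operated eyes to 24.5, 26.0 and 24.5 CPM at 1 month and 25.1, 25.2 and 34.9 CPM at 2 months. RPE-choroid gave 38.7, 40.5 and 38.5 CPM in non-operated eyes, 24.8, 26.1 and 22.3 CPM at 1 month and 24.7, 21.3 and 26.7 CPM at 2 months, with a log2 fold change of -0.77 (SE 0.13, edgeR adjusted p = 0.247). The operated and non-operated groups were apart in RPE-choroid, and in retina the choice required this.

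Rank 40 had the highest level of the 200, with a mean of 1761 CPM in non-operated retina. Its RPE-choroid values were 835, 780 and 1379 CPM in non-operated eyes, 664, 713 and 662 CPM at 1 month and 535, 556 and 577 CPM at 2 months. The groups did not overlap, although non-operated replicate 3 stood far above the other non-operated libraries. Rank 1 was near the lower limit of level, at 1.96, 2.28 and 6.31 CPM in non-operated retina and 0.0448 to 0.365 CPM in operated retina. In RPE-choroid it was at 0.418, 0 and 4.41 CPM in non-operated eyes and 0 CPM in all 3 libraries at 2 months, too low for a test.

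Among the 3 non-operated RPE-choroid libraries, levels of the 200 genes ranked as retina-high levels did. Non-operated replicate 3, whose retina-high level was 56.6%, was the highest non-operated RPE-choroid library for 143 of the 200 genes, and non-operated replicate 2, at 0.431%, was the lowest for 133. The median of all shared-expression genes had the same order, at 0.09 in replicate 3, -0.015 in replicate 1 and -0.10 in replicate 2. For the 200 genes, library medians averaged -0.34 at 1 month and -0.37 at 2 months, when retina-high levels were lower than at 1 month. At 1 month, when the retina-high level was 39.0 to 80.7%, the median log2 fold change was -0.996 for the 30 genes that leaned towards RPE-choroid in non-operated eyes and -0.24 for the 65 that leaned furthest towards retina. Shared-expression genes of the same leanings had 1-month medians of -0.15 and 0.32, so both sets of lowered genes lay below their counterparts. At 2 months the medians of the lowered genes were -0.29 and -0.45, in the other order. The leaning was measured from the same non-operated RPE-choroid mean as the fold change, so the 2 are not independent.

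Each operated library was therefore set beside the non-operated library nearest to it in retina-high score, the mean log2 CPM of the list, with no test. The pairs were not equal in retina-high level, as the percentages above show. Any retina RNA in an operated RPE-choroid library would bring the retina levels that chose the genes. For this reason neither matching on retina-high level nor the covariate below can separate the tissues. Between the pair with almost no retina-high signal, 2-month replicate 3 and non-operated replicate 2, 151 of 200 genes (75.5%) were lower in the operated library, with a median log2 ratio of -0.27, against 51.3% and -0.01 for shared-expression genes. The 1-month libraries against their nearest non-operated library had 193, 186 and 188 of 200 genes lower, and 2-month replicates 1 and 2 had 133 and 151. The share of shared-expression genes that were lower in these 5 pairs was 36.5 to 43.1%. By percentage of the retina level, 1-month replicate 3 was nearer to non-operated replicate 3 than to replicate 1, and against replicate 3 it had 195 of 200 genes lower, with 50.2% of shared-expression genes lower. With the retina-high score as a covariate in the edgeR fit, the medians were -0.54 at 1 month, -0.33 at 2 months and -0.46 for the mean, and 1, 0 and 3 genes were called lower, against 0.0368%, 0.0123% and 0.098% of all genes. In retina, RPE-choroid-high genes stood at 0.421 to 0.477% of their RPE-choroid level in non-operated eyes, 2.12 to 3.21% at 1 month and 0.676 to 1.54% at 2 months, and their part in the retina values was not tested.

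**Figure D4:**
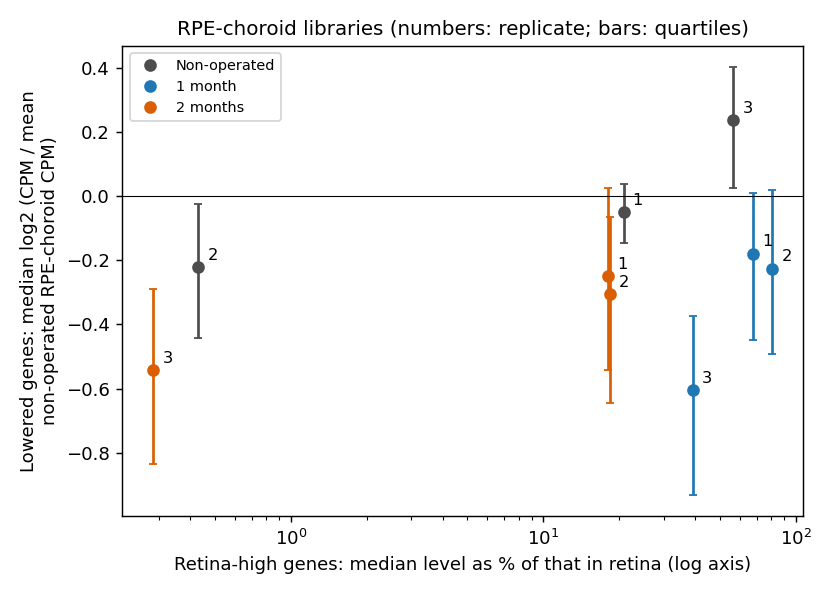
Median log2 ratio of the 200 genes to the non-operated mean in each RPE-choroid library, against the level of the 200 retina-high genes in that library as a percentage of retina (log axis), with bars for the quartiles over genes and replicate numbers beside the points. Non-operated libraries span -0.22 to 0.24, and each operated library lies below the non-operated library nearest to it in retina-high level.

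Between 2 months and 1 month in RPE-choroid, 0 genes were called by edgeR with Benjamini-Hochberg adjustment, where 0% of all genes were called. At an unadjusted p under 0.05, 13 were lower and 33 higher, against 11.5% and 18.9% of all genes. DESeq2 called 30, of which 23 were higher, where it called 7.18% of all genes lower and 11.5% higher. The median log2 fold change was 0.05 and 90 were negative. Leaving out the libraries with almost no retina-high signal, non-operated replicate 2 and 2-month replicate 3, gave 18 calls, 14 of them higher at 2 months, where 6.9% of all genes were called higher and 4.06% lower. Where genes passed, the share of these genes that was higher was thus near that of all genes, and the share that was lower was below it.

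The difference between the tissues in the response to surgery and filling was fitted over all 18 libraries and 16846 genes. Its retina side chose the genes, so it is a description. One gene of the 200, ENSOCUG00000013290, was called by edgeR with Benjamini-Hochberg adjustment, with retina lower than RPE-choroid by -1.36 on the log2 scale (SE 0.29, adjusted p = 0.022), and 0.0237% of all genes tested were called in that direction. That fit treated the 18 libraries as unpaired. A block on replicate number within each tissue, which does not pair the tissues, gave an edgeR adjusted p of 0.0925. A block by condition and number, added after seeing the data, pairs same-numbered samples of the 2 tissues, and gave 0.0336. The median of this difference was -0.41, that is further below non-operated levels in retina.

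Other groups of genes chosen in the same way placed the RPE-choroid median of -0.44 in context. The 200 shared-expression genes most raised in all 6 operated retinas had a median of 0.58 in operated RPE-choroid, and 4 were negative. The 200 most lowered retina-preferring genes had a median of -0.83, with 193 of those tested negative, but this was -0.13 at 1 month and -1.50 at 2 months, where the shared-expression genes described here had -0.45 and -0.37. Retina-high genes stood at 39.0 to 80.7% of retina level in RPE-choroid at 1 month and at 0.286 to 18.4% at 2 months. Their part in these medians, and the differences between groups of genes, were not tested.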

How the data were processed

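Polyadenylated RNA was sequenced with a directional kit from 9 retina and 9 RPE-choroid samples. The deposited values were raw counts per Ensembl gene, which the authors made by trimming reads with Trim Galore, aligning them to OryCun2.0 with HISAT2 and counting with HTSeq (versions not given in the sources used here). Counts that HTSeq placed on no single gene, 46.6 to 52.9% of each library's total, were in 5 summary lines and were left out.

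The genes were chosen on plain CPM. The genes and the lists used beside them were chosen with earlier results of these data known. Each tissue's 9 libraries were fitted together in edgeR 4.0.16 (R 4.3.3; quasi-likelihood, robust, two-sided; TMM scaling; filterByExpr at its defaults, min.count 10 and min.total.count 15), with Benjamini-Hochberg adjustment over all genes tested (15878 in retina, 16322 in RPE-choroid). The standard error is the log2 fold change divided by the square root of F. DESeq2 1.42.0 was an alternative, and others were other scaling, no filter, a replicate block, leaving out each library and other forms of the selection. The retina-high and RPE-choroid-high lists held 200 genes each, those with the largest difference of mean log2 CPM between all libraries of one tissue and all of the other, among genes with a mean of at least 5 in the higher tissue. Adding the retina-high covariate, leaving out 2 RPE-choroid libraries, pairing single libraries and blocking by condition and number were chosen after seeing the data. Identifiers were printed for the 2 most negative and 2 most positive RPE-choroid log2 fold changes among genes with at least 5 CPM in non-operated RPE-choroid. The script was tested on simulated data.

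Same-numbered samples of non-operated and operated groups did not deviate together, since not every correlation over genes of their deviations from the group means passed 0.1. Over all genes tested, same-numbered retina and RPE-choroid samples did deviate together at each condition (0.327, 0.157 and 0.153 in non-operated eyes). Over the 200 genes they did so in non-operated eyes, but not at 1 month (-0.004, 0.248 and 0.039) or 2 months (0.322, 0.064 and 0.208). The RPE-choroid values may thus not be wholly independent of the retina samples that chose the genes. Non-operated RPE-choroid also entered the choice through the shared-expression limit.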

Additional observations from a re-analysis of the deposited data

Results flagged for a closer look

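ENSOCUG00000013290, rank 63, differed between the tissues. Its log2 fold change for operated against non-operated eyes was -0.96 in retina and 0.44 in RPE-choroid, and the difference of -1.365 (SE 0.287) had an adjusted p of 0.022 by edgeR's interaction test over all genes. With a replicate block the adjusted p was 0.0925, and with a block by condition and number, added after seeing the data, it was 0.0336. The retina side of the difference chose the gene.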

How the results depend on the processing

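The RPE-choroid medians kept their sign under every alternative run. Leaving out each library gave medians of -0.53 to -0.32 at 1 month, -0.50 to -0.28 at 2 months and -0.50 to -0.33 for the mean of both times. With plain CPM in place of TMM scaling, which moved the median of the shared-expression genes by 0.143 in operated retina and, in RPE-choroid, by 0.117 at 1 month, 0.036 at 2 months and 0.085 for the mean on the log2 scale, 179, 174 and 187 of 200 genes were lower in RPE-choroid. Selecting on TMM-scaled CPM raised the eligible genes from 462 to 1085 and kept 168 of the 200. Setting shared expression by operated RPE-choroid kept 130, with medians of -0.41, -0.24 and -0.30, and limiting the shared-expression range to 0.5 kept 73, with medians of -0.39, -0.19 and -0.27.

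Counts of calls depended more on the method, and the cause was not tested. Where no share of all genes stands beside a count, it cannot be told apart from a change in calls over all genes. By DESeq2 181 genes were called lower in retina at 2 months, against 6.18% of all genes. In RPE-choroid it called 35 at 1 month, 17 at 2 months and 17 for the mean, against 5.45%, 0.603% and 0.621%. Between 2 months and 1 month 30 changed, where 7.18% of all genes were called lower and 11.5% higher. Dropping the low-count filter gave 5 for that last comparison. The retina-high covariate gave 1 in RPE-choroid at 1 month and 3 for the mean, against 0.0368% and 0.098% of all genes. Leaving out non-operated replicate 2 and 2-month replicate 3 of RPE-choroid gave 1, 2 and 1 for 1 month, 2 months and the mean. Between times it gave 18, where 4.06% of all genes were called lower and 6.9% higher.

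Leaving out single libraries gave 76 to 132 in retina at 1 month, where 95, 111 and 88 were called without 1-month replicate 1, 1-month replicate 3 and non-operated replicate 3. At 2 months in retina the range was 18 to 188, with 24, 30 and 34 without 2-month replicate 2, non-operated replicate 1 and non-operated replicate 3. In RPE-choroid the ranges were 0 to 28 at 1 month, 0 to 0 at 2 months and 0 to 4 for the mean (4 without non-operated replicate 3, 2 without 2-month replicate 3), and 0 to 1 between times. Of all genes, 1.6% were called lower in the retina fit with 76. In those with 18 and 188 the shares were 0.439% and 12%, and in the RPE-choroid fit with 28 it was 8.9%. The other counts here stand without such a share.

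Within a tissue, same-numbered non-operated and operated samples did not deviate together and share only a number. Same-numbered retina and RPE-choroid samples of each condition did deviate together over all genes tested. With the replicate block 68 genes were called lower in retina at 2 months and 0 differed between tissues. With a block by condition and number, 1 differed. These counts stand without a share of all genes and cannot be told apart from a change in calls over all genes. The RPE-choroid medians were -0.47, -0.39 and -0.46 with the replicate block. RPE-choroid samples at 1 and 2 months with the same number deviated together (0.133, 0.298 and 0.345), and the block called 0 genes between those times.

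For ENSOCUG00000002172 in RPE-choroid the sign turned: at 1 month from -0.019 to 0.041 with the retina-high covariate and to between -0.15 and 0.13 on leaving out single libraries, and for the mean from 0.20 to -0.015 without the 2 libraries of low retina-high level.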
